A study of Mus musculus with 6 samples.

Results

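The genes described here are 8 ligands through which antigen-presenting and stromal cells stimulate or restrain T-cells: *Cd80*, *Cd86*, *Cd274*, *Pdcd1lg2*, *Icosl*, *Cd276*, *Cd70* and *Cd83*. They were chosen by symbol among the 22513 gene entries measured, and all 8 were found, each as 1 entry of its own. RNA-seq had been made from C57BL/6 fetal thymus organ cultures, in which thymic lobes are kept on filters, after 4 days with 2′-deoxyguanosine (2-DG), a nucleoside that depletes haematopoietic cells and leaves mainly the stroma. All 6 libraries share this treatment. There was 1 library of WT stroma and 1 of *Jmjd6*-/- stroma without RANKL, and 2 libraries of each genotype after 4 days with RANKL, the ligand of the receptor RANK on medullary thymic epithelial cells (mTECs). Jmjd6 is a nuclear lysyl hydroxylase, and the *Jmjd6*-/- lobes came from knockout embryos. The submitters' design note counts 2 samples per RANKL condition and also mentions a technical duplicate, so p-values measure only the spread between these libraries, which may be technical. The questions were whether RANKL changes these ligands and whether *Jmjd6*-/- stroma differs from WT stroma.

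T-cells need a signal through costimulatory receptors beside the one through the antigen receptor, and checkpoint receptors counter it. CD80 and CD86 bind both CD28, which stimulates, and CTLA-4, which inhibits. In the thymus, mature mTECs and dendritic cells carry these ligands, and signals through CD28 help to delete self-reactive thymocytes and to form regulatory T-cells.

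Values are FPKM, the fragments scaled to transcript length and library size, as computed by the authors, so that levels of different genes can be set side by side. A change is given on the log2 scale after 0.1 was added to FPKM, which understates the change of genes at low levels, and adjusted p is from limma with Benjamini-Hochberg adjustment over the 15894 genes that averaged 0.1 FPKM or more. All 8 ligands passed this filter. Exact permutation tests of single genes cannot go below 0.0667 for the 4 libraries with RANKL against the 2 without, nor below 0.333 for 2 against 2. The depth, estimated from the steps between low values, was about 15500000 to 30400000 fragments per library. *Jmjd6* stood at 25.9 to 32.5 FPKM in the 3 WT libraries and at 1.32 to 1.96 in the 3 *Jmjd6*-/- libraries, and *Aire*, which RANKL induces in mTECs, at 0.142 and 0.473 FPKM without RANKL and 67.1 to 79.7 with it. Over genes of at least 1 FPKM, the median absolute log2 difference between the duplicates was 0.276 in WT and 0.0767 in *Jmjd6*-/- stroma, so that the WT libraries carry more of the spread.

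Of these ligands, the ones induced by RANKL and carrying a match to a searched motif just upstream were *Cd80* and *Pdcd1lg2*, and the 250 bases before their RefSeq start sites are shown for that reason. For *Cd80* the RefSeq start directly follows base 38458932, where the deposited entry also begins, while a longer GENCODE transcript starts upstream at 38455561, so that the window lies within the gene as GENCODE bounds it. They come from RefSeq promoters (GRCm38.p6, plus strand), which hold 5 of the 8 genes. *Cd86*, *Cd70* and *Cd83* are not among them. The capitals mark the motif match, an AP-1 motif in *Cd80* and a kB consensus in *Pdcd1lg2*.
*Cd80*, chr16:38458683-38458932: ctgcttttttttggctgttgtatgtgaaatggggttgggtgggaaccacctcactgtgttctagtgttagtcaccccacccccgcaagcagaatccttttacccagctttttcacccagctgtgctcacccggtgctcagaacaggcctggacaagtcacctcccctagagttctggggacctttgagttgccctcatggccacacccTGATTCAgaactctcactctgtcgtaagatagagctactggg
*Pdcd1lg2*, chr19:29410669-29410918: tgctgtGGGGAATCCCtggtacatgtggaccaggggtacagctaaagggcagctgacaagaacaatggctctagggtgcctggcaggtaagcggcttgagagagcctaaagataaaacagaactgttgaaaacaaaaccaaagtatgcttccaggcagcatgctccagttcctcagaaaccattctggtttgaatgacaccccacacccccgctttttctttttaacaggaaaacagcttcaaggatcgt

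Both strands of the 250 bases were searched for the kB consensus, bound by NF-kB, for AP-1 (TGANTCA), for the interferon response element and for the STAT site GAS (TTCNNNGAA). *Pdcd1lg2* held 1 kB match, GGGGAATCCC, from 244 to 235 bases before the start, while 3.92% of the 32536 distinct promoter windows of this length hold one. *Cd80* held 1 AP-1 match, TGATTCA, from 42 to 36 bases before the start, and 6.73% of promoters hold one. Neither match overlapped another motif. The windows of *Cd274*, *Icosl* and *Cd276* held none of the 4 motifs. Of all promoters, 2.98% hold the interferon element and 7.04% hold GAS. A match is a description of these letters and not evidence of binding.

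RANKL raised 5 of the 8 ligands (*Cd80*, *Pdcd1lg2*, *Icosl*, *Cd276* and *Cd70*) and lowered 1 (*Cd83*). In comparison, 10.5% of all genes tested were called higher and 4.11% lower. In 4 ligands (*Cd80*, *Pdcd1lg2*, *Icosl* and *Cd70*) the change exceeded 1 on the log2 scale, as in 11.4% of all genes in either direction, and it did so in each genotype, as in 7.39%. The median change over the 8 ligands was 1.36 on the log2 scale, beside -0.02 over all genes. In the same 4 every library with RANKL lay above both without it, and in *Cd83* every library lay below, while 18.9% of all genes lay wholly above and 18.5% wholly below. As the RNA is from whole lobes, more or fewer cells of a type and more or less RNA per cell cannot be told apart.

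**Figure D1:**
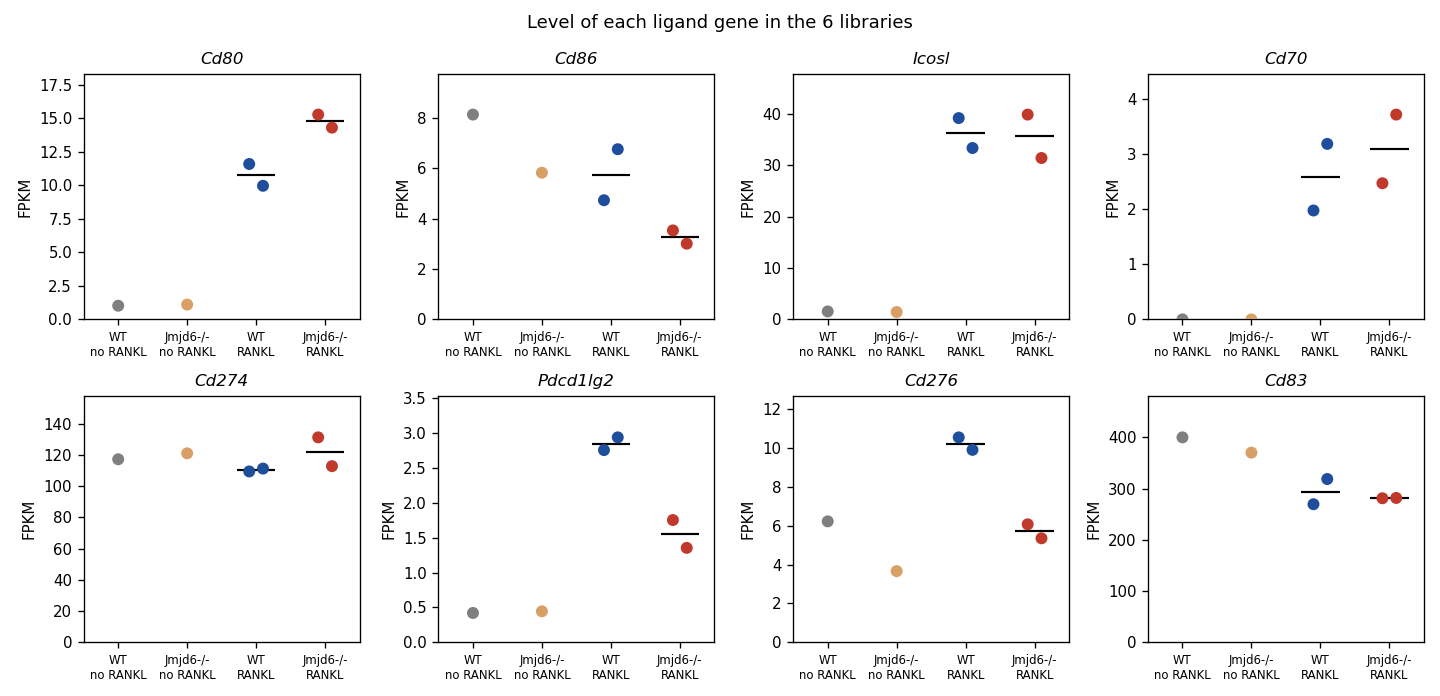
FPKM of each ligand in each of the 6 libraries, on a separate axis for each gene. Points are libraries and black bars are the means of the 2 RANKL libraries of a genotype; *Icosl* rose from 1.55 and 1.44 to between 31.5 and 39.9 FPKM, while *Cd274* stayed between 109 and 131.

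*Cd80* and *Cd86* encode the shared ligands of CD28 and CTLA-4, and their order of abundance turned with RANKL. *Cd80* (XLOC_007378, chromosome 16, 38455561 to 38496335, plus strand in GENCODE M21 on GRCm38) stood at 1.02 and 1.11 FPKM in WT and *Jmjd6*-/- stroma without RANKL, at 11.6 and 9.96 in WT stroma with RANKL and at 15.3 and 14.3 in *Jmjd6*-/- stroma with RANKL. All 4 RANKL libraries lay far above both unstimulated ones, and the *Jmjd6*-/- pair lay above the WT pair. The change with RANKL was 3.45 ± 0.14 (SE) on the log2 scale, or 10.9-fold, with a 95% interval of 8.65- to 13.8-fold (adjusted p = 5.33e-05). *Cd80* ranked 154th of 15894 genes by this change.

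*Cd86* (XLOC_007686, chromosome 16, 36603869 to 36666081, minus strand) lies 1789 kb from *Cd80* and went the other way in its values. It stood at 8.13 and 5.83 FPKM in unstimulated WT and *Jmjd6*-/- stroma, at 4.73 and 6.76 in WT stroma with RANKL and at 3.53 and 3.01 in *Jmjd6*-/- stroma with RANKL. The lowest values were the *Jmjd6*-/- libraries with RANKL, but 1 WT library with RANKL lay above the unstimulated *Jmjd6*-/- library, so that the groups overlapped. The change was -0.67 ± 0.18 on the log2 scale (adjusted p = 0.058) and missed the threshold. With a library left out it ran from -0.82 to -0.52 and passed in 1 of 6 such fits, without the second WT library with RANKL (-0.80, adjusted p = 0.00706), a fit that called 2176 genes higher and 1499 lower in place of 1675 and 654. In the other fits adjusted p lay between 0.055 and 0.375.

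The ratio of *Cd86* to *Cd80* was 7.98 and 5.27 without RANKL, 0.408 and 0.679 in WT stroma with RANKL, and 0.231 and 0.21 in *Jmjd6*-/- stroma with RANKL. *Cd86* was thus the more abundant mRNA in both unstimulated libraries and *Cd80* in all 4 with RANKL. The log2 ratio changed by -4.12, against an SD of 0.37 between libraries of 1 condition (two-sided exact permutation p = 0.0667, the smallest possible). Under RANKL the *Jmjd6*-/- ratio was lower than the WT ratio by -1.23 on the log2 scale, with no overlap of the 2 pairs (two-sided exact permutation p = 0.333, again the smallest possible).

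*Cd86* is typical of macrophages and dendritic cells, and markers of such cells varied as well. Of 10 macrophage and monocyte markers, 3 fell with RANKL (*Emr1*, *Mertk* and *Csf1r*, by 1.0, 0.62 and 0.62 on the log2 scale). As many, 3, rose (*Cd14*, *Mrc1* and *Ly6c2*, by 0.96, 1.48 and 3.63). *Ly6c2* was listed at 0 in both unstimulated libraries, so that its change depends on the added constant. None of the 10 was at 0 in all libraries, and their summed level was 414 and 379 FPKM without RANKL and 359 to 443 with it. Most of that sum was 1 gene, *Lyz2* (lysozyme), at 323 and 290 FPKM without and 285 to 346 with RANKL. *Ptprc*, the pan-leukocyte CD45 gene, fell from 6.81 and 6.74 FPKM to between 2.89 and 3.56, as the only 1 of 5 leukocyte markers to pass. The leukocyte list summed to 71.3 and 60.1 FPKM in unstimulated WT and *Jmjd6*-/- stroma and to 58.6 to 104.4 with RANKL. The highest leukocyte sum was in the second WT library with RANKL, which also had the highest *Cd86* among the RANKL libraries. Of that sum *Cd52* was 51 and *Laptm5* 39.2 FPKM, while *Ptprc* stood at 3.53 there. Over all libraries *Cd86* was highest in unstimulated WT stroma, at 8.13 FPKM, where the leukocyte sum was 71.3. The part of macrophages and other leukocytes in the *Cd86* values was not tested.

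**Figure D2:**
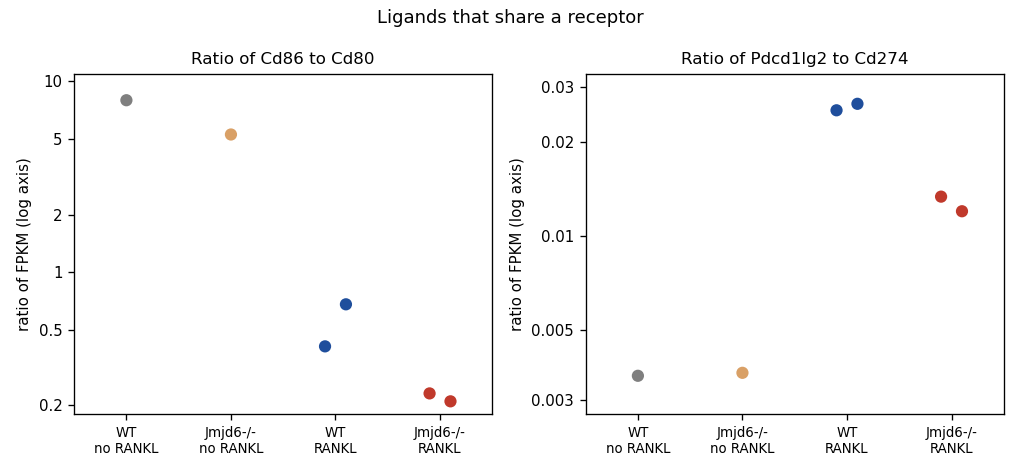
Ratio of FPKM of ligands that share receptors, with *Cd86* to *Cd80* on the left and *Pdcd1lg2* to *Cd274* on the right, both on log axes. Each point is a library; the left ratio falls from 7.98 and 5.27 to below 1 with RANKL and the right one rises from 0.00358 and 0.00366 to between 0.012 and 0.0264.

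*Cd274* and *Pdcd1lg2* encode PD-L1 and PD-L2, the ligands of the inhibitory receptor PD-1. They are neighbours on chromosome 19, 22.8 kb apart, and only the second passed the RANKL test. Their difference is measured by their ratio. *Cd274* (XLOC_009725, 29367455 to 29388095, plus strand) stood at 117 and 121 FPKM without RANKL, at 109 and 111 in WT stroma with RANKL and at 131 and 113 in *Jmjd6*-/- stroma with RANKL. The conditions overlapped and no library stood apart. The change was -0.04 ± 0.09 on the log2 scale, with a 95% interval from -0.26 to 0.18 (adjusted p = 0.803). The interval excludes a change of the size seen in *Cd276*, 0.67. By its mean over the libraries, *Cd274* was the 625th most abundant of the 15894 genes.

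*Pdcd1lg2* (XLOC_009726, 29410919 to 29471161, plus strand) stood at 0.42 and 0.443 FPKM without RANKL, at 2.76 and 2.94 in WT stroma with RANKL and at 1.75 and 1.35 in *Jmjd6*-/- stroma with RANKL. All 4 RANKL libraries lay above the unstimulated ones, and the WT pair lay above the *Jmjd6*-/- pair. The change was 2.05 ± 0.26 on the log2 scale, or 4.14-fold, with an interval of 2.68- to 6.39-fold (adjusted p = 0.00363). With a constant of 1 the change was 1.13. About 20 and 11 fragments lie behind the unstimulated values and 41 to 121 behind the others. The limma contrast within WT stroma was 2.50 (adjusted p = 0.0114) and that within *Jmjd6*-/- stroma 1.60 (adjusted p = 0.052). Each rests on 1 unstimulated library, and the spread is pooled over both genotypes. The difference between these responses was -0.91, with an interval from -1.95 to 0.14 (adjusted p = 1, unadjusted p = 0.0772), and was not past the threshold.

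The ratio of *Pdcd1lg2* to *Cd274* was 0.00358 and 0.00366 without RANKL, 0.0252 and 0.0264 in WT stroma with RANKL, and 0.0134 and 0.012 in *Jmjd6*-/- stroma with RANKL. PD-L2 mRNA thus remained far below PD-L1 mRNA in every library. The log2 ratio rose by 2.09, against an SD of 0.07 between libraries of 1 condition (two-sided exact permutation p = 0.0667), and was -0.99 in *Jmjd6*-/- relative to WT stroma under RANKL (exact permutation p = 0.333).

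*Icosl* encodes the ligand of ICOS, a costimulatory receptor of activated and regulatory T-cells, and *Cd70* that of CD27. *Icosl* had the largest change among the ligands detected in every library, and *Cd70* went from undetected to detected. *Icosl* (XLOC_001492, chromosome 10, 78069302 to 78083913, plus strand) stood at 1.55 and 1.44 FPKM without RANKL, at 39.2 and 33.4 in WT stroma with RANKL and at 39.9 and 31.5 in *Jmjd6*-/- stroma with RANKL. The RANKL libraries lay far above the others in both genotypes, and the genotypes overlapped. The change was 4.49 ± 0.13 on the log2 scale, or 22.5-fold, with an interval of 18.1- to 28.1-fold (adjusted p = 2.58e-05), and *Icosl* ranked 57th of 15894 genes. Only 0.535% of genes rose by 4 or more on this scale.

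*Cd70* (XLOC_008897, chromosome 17, 57145997 to 57149777, minus strand) was listed at 0 in both unstimulated libraries, at 1.97 and 3.18 FPKM in WT stroma with RANKL and at 2.47 and 3.71 in *Jmjd6*-/- stroma with RANKL. It was detected in all 4 RANKL libraries, with the genotypes overlapping. A value of 0 allows up to 3 fragments, which is 0.143 FPKM in the unstimulated WT and 0.28 in the unstimulated *Jmjd6*-/- library at the estimated depth. Against these limits, which cover counting error only, *Cd70* in the lower of the RANKL libraries was at least 13.8-fold higher in WT and at least 8.82-fold higher in *Jmjd6*-/- stroma, and the means of the RANKL libraries give bounds of 18.1 and 11.04. If the depth were overestimated 2-fold, the bounds from the means would be 9.03 and 5.52. The fitted change of 4.84 ± 0.29 (adjusted p = 0.00016) depends on the added constant and ran from 1.92 with a constant of 1 to 8.11 with 0.01, and between 35 and 50 fragments lie behind each RANKL value.

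*Cd276* encodes B7-H3, a member of the B7 family found on many non-haematopoietic cells, whose receptor is not settled. *Cd276* (XLOC_021157, chromosome 9, 58524298 to 58555437, minus strand) stood at 6.22 and 3.66 FPKM in WT and *Jmjd6*-/- stroma without RANKL, at 10.5 and 9.90 in WT stroma with RANKL and at 6.07 and 5.35 in *Jmjd6*-/- stroma with RANKL. Within each genotype RANKL libraries were higher, but the *Jmjd6*-/- libraries with RANKL were below unstimulated WT stroma, so that the conditions overlapped. With genotype in the model, the change with RANKL was 0.67 ± 0.12, or 1.59-fold (adjusted p = 0.0124). The limma contrasts, with the spread pooled over both genotypes, were 0.71 (adjusted p = 0.101) within WT and 0.63 (adjusted p = 0.183) within *Jmjd6*-/- stroma. The threshold was missed without either unstimulated library. Such an omission leaves only the estimate within the other genotype, so that it is no separate check. The threshold was also missed without the first *Jmjd6*-/- library with RANKL. Values ran from 0.63 to 0.71 over all omissions of a library.

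*Cd83* encodes a surface protein of mature dendritic cells that is also found on thymic epithelial cells, where it supports CD4 T-cell selection. It was the most abundant of these ligands in every library. *Cd83* (XLOC_004852, chromosome 13, 43784775 to 43803132, plus strand) stood at 400 and 370 FPKM without RANKL, at 269 and 319 in WT stroma with RANKL and at 281 and 282 in *Jmjd6*-/- stroma with RANKL. All 4 RANKL libraries were below both unstimulated ones. It fell by 0.42 ± 0.10 on the log2 scale, to 0.746-fold, with an interval of 0.634 to 0.878 (adjusted p = 0.0338). This call is narrow: it was lost without either unstimulated library, without either *Jmjd6*-/- library with RANKL and when libraries were scaled by the median ratio (adjusted p = 0.0552), while the change stayed between -0.47 and -0.37 over all omissions.

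**Figure D3:**
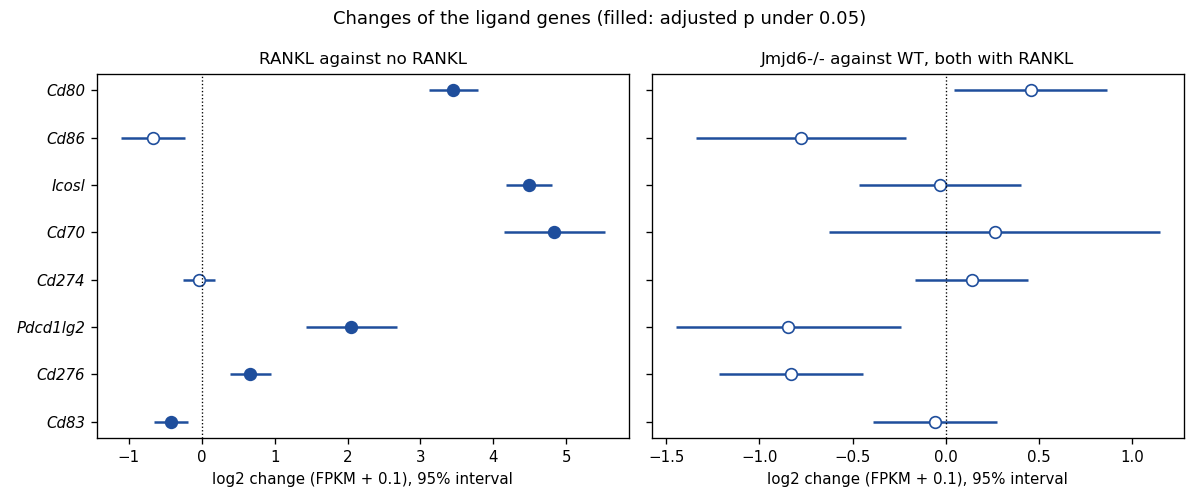
Log2 changes of the 8 ligands with RANKL (4 libraries against 2) and between *Jmjd6*-/- and WT stroma under RANKL (2 against 2), with 95% intervals from limma as bars and filled points past the adjusted threshold. *Cd70*, *Icosl*, *Cd80* and *Pdcd1lg2* lie at 4.84, 4.49, 3.45 and 2.05 for RANKL, while the genotype values lie between -0.84 and 0.46.

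Ordered by level, both unstimulated genotypes gave *Cd83*, *Cd274*, *Cd86*, *Cd276*, *Icosl*, *Cd80*, *Pdcd1lg2* and *Cd70*, from high to low. With RANKL, *Icosl* moved to the third place in both genotypes, with means of 36.3 ± 4.13 (SD, n = 2) FPKM in WT and 35.7 ± 5.98 (SD, n = 2) in *Jmjd6*-/- stroma, and *Cd80* to the fourth, with 10.8 ± 1.15 (SD, n = 2) and 14.8 ± 0.687 (SD, n = 2). In WT stroma *Cd80* and *Cd276* overlapped, as did *Pdcd1lg2* and *Cd70*. In *Jmjd6*-/- stroma only *Cd86* and *Cd70* overlapped among neighbours in the order. The other neighbours did not overlap, with 2 libraries each. *Cd83* made up 73.5 to 74.8% of the summed FPKM of the 8 ligands without RANKL and 58.4 to 64.2% with it, and *Cd274* 21.9 to 27.3% throughout. The remaining ligands together rose from 17.4 and 12.5 FPKM to between 59.2 and 70.8.

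Between the genotypes under RANKL, none of the 8 ligands passed the adjusted threshold, while 0.516% of all genes were called higher and 1.82% lower in *Jmjd6*-/- stroma. In 2 ligands (*Cd80* and *Cd274*) both *Jmjd6*-/- libraries lay above both WT libraries, and in 3 (*Cd86*, *Pdcd1lg2* and *Cd276*) both lay below. Of all genes, 24.5% lay wholly above and 26.2% wholly below. At an unadjusted p under 0.05, limma gave 4 of the 8 ligands (*Cd80*, *Cd86*, *Pdcd1lg2* and *Cd276*) and 2987 of all genes. The median over the ligands was -0.04 on the log2 scale, and 0.01 over all genes.

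The largest genotype values were those of *Pdcd1lg2*, *Cd276* and *Cd86*. *Pdcd1lg2* was -0.84 ± 0.24 on the log2 scale, or 0.557-fold (adjusted p = 0.145). *Cd276* was -0.83 ± 0.15, or 0.562-fold, with an interval of 0.43 to 0.734 (adjusted p = 0.0616), and the unstimulated *Jmjd6*-/- library stood at 0.588 of the WT one. *Cd86* was -0.78 ± 0.23 (adjusted p = 0.151), and of the 10 macrophage and monocyte markers 1 was lower in *Jmjd6*-/- stroma, *Ly6c2* at -2.68 (adjusted p = 0.0279), and 0 were higher. All 3 ligand values lie on the same side in each pairing of libraries, but miss the threshold. Leaving out the first WT library with RANKL gave calls for *Cd276* (-0.79, adjusted p = 0.0347), *Cd86* (-1.03, adjusted p = 0.0321) and *Cd80* (0.56, adjusted p = 0.0428), and leaving out the second gave *Cd276* (-0.88, adjusted p = 0.0383). These fits called many more genes of all kinds: 2428 higher and 1836 lower without the first WT library and 993 and 1026 without the second, in place of 82 and 290, so that the calls are not particular to the ligands. Leaving out the first or second *Jmjd6*-/- library with RANKL went the other way, with adjusted p of 0.353 and 0.609 for *Cd276*, 0.492 and 0.84 for *Cd86* and 1 in both for *Cd80*. In all 4 fits the lone library is assumed to vary like the others.

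*Cd80* was 0.46 ± 0.16 on the log2 scale in *Jmjd6*-/- relative to WT stroma, or 1.37-fold, with an interval of 1.03 to 1.82 (adjusted p = 0.223). *Cd274* was 0.14 ± 0.12 (adjusted p = 0.611) and *Cd70* 0.26 ± 0.35 (adjusted p = 0.758). *Icosl* was -0.03, with an interval from -0.46 to 0.40 (adjusted p = 0.949), and *Cd83* -0.06, with an interval from -0.39 to 0.28 (adjusted p = 0.861). These intervals leave room for a moderate difference in either direction. No difference in the RANKL response between the genotypes passed in limma for any ligand or any gene (adjusted p = 1 for all 8 ligands, 0% of genes called in either direction), and 0 ligands and 664 genes had an unadjusted p under 0.05.

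*Cd276* is found on fibroblasts and endothelium, and markers of those cells differed between the genotypes. Of 7 mesenchymal and endothelial markers, 3 were lower in *Jmjd6*-/- stroma under RANKL: *Cdh5* at -1.6 (adjusted p = 0.0282), *Pecam1* at -1.74 (adjusted p = 0.0282), both of endothelium, and *Col3a1*, a fibrillar collagen, at -1.0 (adjusted p = 0.028). The list median was -1.0, and none of the 7 was at 0 in all libraries. Their sum was 386 FPKM in unstimulated WT and 332 to 349 in WT stroma with RANKL, against 184 and 175 to 182 in *Jmjd6*-/- stroma. Most of that sum was 1 gene, *Col3a1*. It stood at 266 FPKM in unstimulated WT and 235 to 245 in WT stroma with RANKL, against 127 and 115 to 125 in *Jmjd6*-/- stroma. With RANKL 3 of the 7 fell (*Cdh5* by 1.15, *Pecam1* by 0.92 and *Kdr* by 0.87) and 0 rose, whereas *Cd276* rose. Between the genotypes *Cd276* was likewise lower in all *Jmjd6*-/- libraries than in the WT library or libraries of the same treatment. The part of these cells in the *Cd276* values was not tested.

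Other cells that could carry the ligands were followed by their markers. Of 10 dendritic cell markers, 6 could be tested and 3 rose with RANKL: *Fscn1* by 2.23, *Ccr7* by 3.78 and *Itgax* by 1.94 on the log2 scale. The 10 markers summed to 10.5 and 7.62 FPKM in unstimulated WT and *Jmjd6*-/- stroma and to 35.9 to 46.7 with RANKL. Of that sum *Fscn1*, a gene of actin bundling that is not limited to dendritic cells, was 25.3 to 36.6 in the RANKL libraries. The markers that define dendritic subsets were low: *Siglech* was listed at 0 in every library, and *Xcr1*, *Clec9a* and *Cd209a* did not exceed 0.0725 FPKM. The part of dendritic cells in the rise of *Cd80*, *Pdcd1lg2* and *Cd70* was not tested. Of 5 B cell markers 1 rose (*Cd79b*), with *Ms4a1* and *Pax5* at no more than 0.195 FPKM. Of 9 T cell markers *Thy1* and *Lck* rose, while *Cd3e*, *Cd3d* and *Cd3g* did not exceed 0.124 FPKM.

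**Figure D4:**
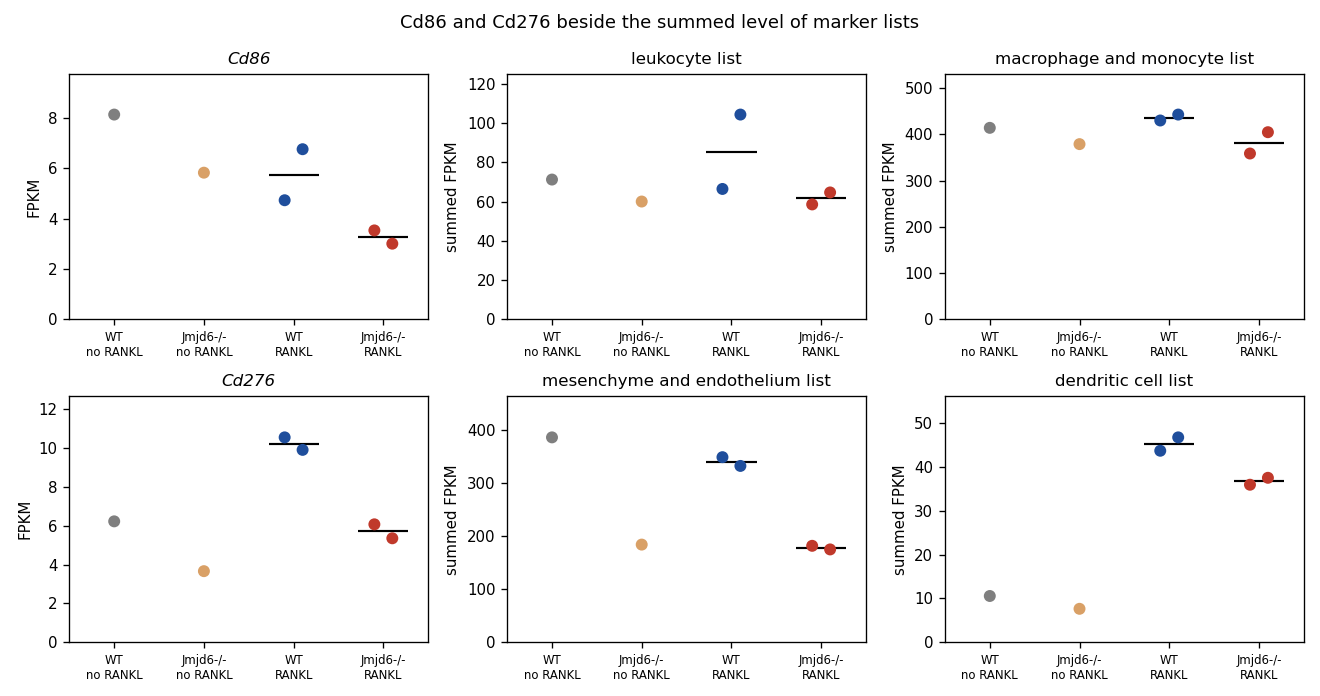
FPKM of *Cd86* and *Cd276* (left) beside the summed FPKM of marker lists of other cell types in each of the 6 libraries. Points are libraries and black bars are the means of the 2 RANKL libraries of a genotype. The dendritic sum rises from 10.5 (WT) and 7.62 (*Jmjd6*-/-) to between 35.9 and 46.7. The mesenchymal and endothelial sum, most of it *Col3a1*, is 332 to 386 in WT and 175 to 184 in *Jmjd6*-/- stroma.

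Most listed markers of mature mTECs rose with RANKL as well. Of 15 listed mature mTEC genes 14 were found by symbol, and 9 rose and 0 fell with RANKL, with a median change of 0.96 on the log2 scale. The other 5 missed the threshold: *Krt5*, *Cldn3*, *H2-Ab1*, *Cd74* and *Epcam*, at -0.21, 0.67, 0.16, 0.30 and 0.27. Of 9 cortical epithelial genes, 4 fell and 0 rose, with a median of -0.45. Under RANKL *Ccl19*, a chemokine, was the 1 mTEC-list gene lower in *Jmjd6*-/- stroma (-2.71, limma adjusted p = 0.028) and none was higher. *Ccl19* has 2 entries, of which only the first was used. These counts stand beside 10.5% and 4.11% of all genes called higher and lower with RANKL.

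The receptors of the ligands were nearly absent from the stroma. Of *Cd28*, *Ctla4*, *Pdcd1*, *Icos*, *Cd27*, *Rgmb* and *Treml2*, 6 were below 1 FPKM in every library, *Cd28* between 0.129 and 0.341. The exception was *Rgmb*, which encodes a BMP co-receptor that also binds PD-L2, at 8.74 to 12.6 FPKM. It changed by -0.24 ± 0.10 with RANKL (adjusted p = 0.168), and 0 of the 3 testable receptors passed in either comparison.

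Other ligands of T-cell costimulation or inhibition moved in both directions. Of 23 listed genes 18 were tested, 7 rose and 1 fell with RANKL, with a median of 0.34 on the log2 scale. The TNF family ligand of 4-1BB, *Tnfsf9*, rose by 3.35 ± 0.27 (adjusted p = 0.000537), from 0.305 and 0.0728 FPKM to between 2.28 and 3.37. *Cd40*, the receptor for CD40L, rose by 1.88, *Tnfsf11*, the gene of RANKL itself, by 1.93, and *Icam1*, an adhesion ligand, by 0.81. *Tnfsf11* was low, at 0.0474 and 0.0599 FPKM without RANKL and 0.333 to 0.64 with it, so that its change depends on the added constant. *Lgals9* (galectin-9), *Lgals3* and *Pvrl2* rose by 1.09, 0.88 and 0.55. The 1 that fell was 4632428N05Rik, the symbol under which *Vsir* (VISTA, an inhibitory ligand) is listed, by 0.67 (adjusted p = 0.0421).

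**Figure D5:**
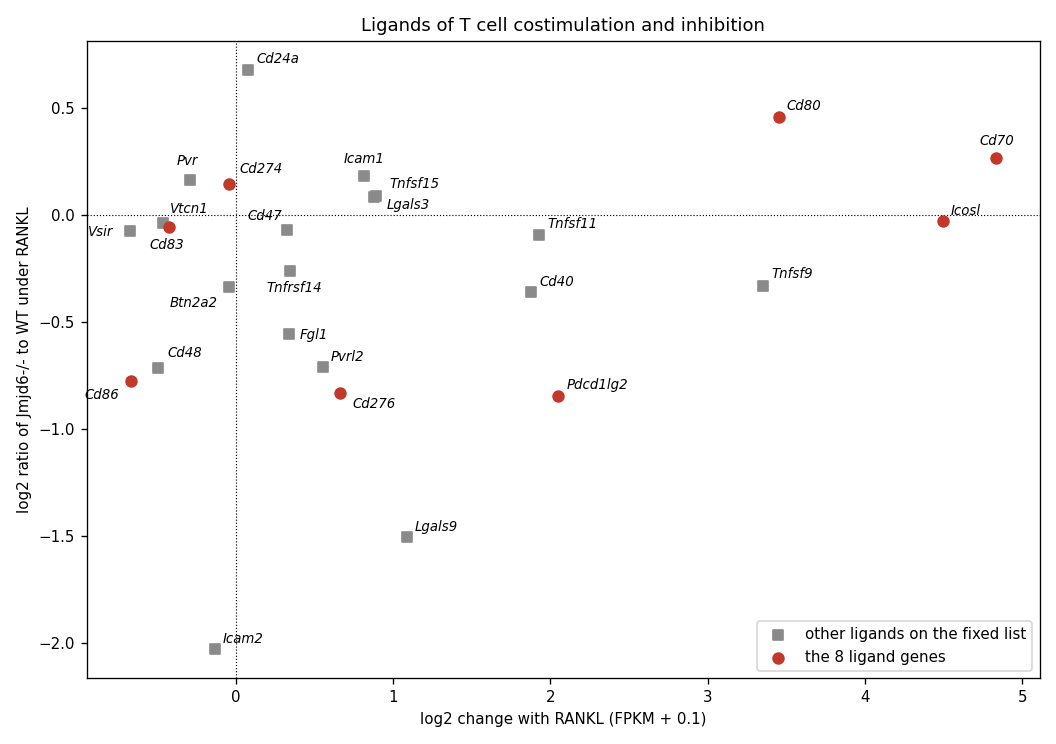
Log2 change with RANKL (horizontal) against the log2 ratio of *Jmjd6*-/- to WT stroma under RANKL (vertical) for the 8 ligands (circles) and the 18 other ligands that could be tested (squares). Both changes use the same RANKL libraries. *Icosl*, *Cd70* and *Cd80* lie at the far right, at -0.03, 0.26 and 0.46 on the vertical axis. *Icam2* and *Lgals9* lie lowest, at -2.03 and -1.51.

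Between the genotypes, 2 of those 18 ligands were lower and 1 higher in *Jmjd6*-/- stroma. *Lgals9* stood at 103 and 28.5 FPKM in WT and *Jmjd6*-/- stroma without RANKL, 198 and 190 in WT with RANKL and 77.8 and 60 in *Jmjd6*-/- with RANKL. It was -1.51 ± 0.15 in *Jmjd6*-/- relative to WT stroma (adjusted p = 0.0279), with no overlap of the pairs. *Icam2*, a leukocyte and endothelial adhesion ligand, was at -2.03 (adjusted p = 0.0444), and *Cd24a*, a small surface glycoprotein, at 0.68 (adjusted p = 0.0494).

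Several of the ligands are textbook targets of NF-kB, the pathway downstream of RANK, or of interferons. Of 12 NF-kB target genes 9 rose and 0 fell with RANKL (median 0.92), and 0 passed between the genotypes. *Nfkbia*, the inhibitor of NF-kB, rose by 1.14 (adjusted p = 0.00125) and *Traf1*, an adaptor of TNF receptors, by 3.51 (adjusted p = 5.21e-05). Of 14 interferon response genes 11 rose and 0 fell (median 1.52), and 3 (*Irf7*, *Oas1a* and *Isg15*) were lower in *Jmjd6*-/- stroma, with a genotype median of -0.66. Their sum was 991 and 473 FPKM in unstimulated WT and *Jmjd6*-/- stroma, 1980 and 2485 in WT with RANKL and 1381 and 1150 in *Jmjd6*-/- with RANKL. *Cd274*, widely known as an interferon target, stood between 109 and 131 FPKM in these same libraries. The part of NF-kB or of interferons in the ligand values was not tested.

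Profiles most like each ligand were found by the smallest root mean square difference of centred log2 values over the 6 libraries, among genes of at least 1 FPKM. For *Cd80* they were *Traf1* (0.113), *Pou2af1* (0.159) and an entry shared by *Il4i1* and *Nup62* (0.179). *Cd86* was nearest to *Fcgrt* (0.0742), *Ramp3* (0.0785) and *Themis2* (0.0982), *Pdcd1lg2* had *Nostrin* (0.177) and *Upk1a* (0.198) among its 3 nearest, and *Icosl* was nearest to *Pmp2* (0.17), *Ces1f* (0.179) and *Runx3* (0.198). *Cd276* was nearest to *Vegfa* (0.0848), *Mb21d1* (0.0864) and *Col6a1* (0.0905), and *Cd70* to *Grin2c* (0.271), *Bcl2a1d* (0.298) and *Skint9* (0.319). For *Cd274* they were *Tmem234* (0.0208), *Ticam1* (0.0346) and *Gramd1c* (0.0354), and for *Cd83* *N6amt1* (0.0339), *Arl4c* (0.0453) and *Gm6297* (0.051). Genes that hardly change lie near many others, and with 6 shared libraries the likeness is a description.

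In GENCODE M21, antisense genes overlap *Cd274* (AC119228.1), *Pdcd1lg2* (*A930007I19Rik*) and *Cd276* (*Gm10657*). The library preparation describes no step that keeps the strand, so reads of these partners cannot be told apart from those of the ligands.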

How the data were processed

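The authors sequenced poly-A RNA (TruSeq), mapped reads to mm10 with TopHat2 2.0.10 and computed the deposited FPKM with Cufflinks 2.1.1, correcting for multi-mapped reads and assuming stranded libraries. FPKM per gene were used as deposited, and totals per library ran from 501418 to 564985. Groups came from titles and the stimulation label; the treatment label gives RANKL for all 6 libraries. log2(FPKM + 0.1) was fitted with limma 3.58.1 in R 4.3.3 (mean of at least 0.1 FPKM, trend, threshold 0.05), with genotype as a term for RANKL and condition means for the genotypes. The fits were tested on simulated data. The ligands, gene lists and tests were chosen with earlier results of these data known. Genes named are the ligands, list genes past the threshold, *Jmjd6* and *Aire* as checks, and the 3 nearest profiles per ligand, of which some are not reported here; list members named with marker levels near 0, *Cd28*, *Rgmb* and *Cd3g* were picked with their values known. Alternatives were constants of 1 and 0.01, no filter or 1 FPKM, no trend, 2 scalings, each library left out and a replicate block. For RANKL, contrasts within each genotype were also taken, with the spread pooled over both genotypes.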

Additional observations from a re-analysis of the deposited data

How the results depend on the processing

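Without the filter, without the trend or scaled by the median ratio, 0 ligands were lower with RANKL, in place of 1, and scaled to equal totals there were 2, with *Cd86* added (adjusted p = 0.0486). In the contrasts within WT and within *Jmjd6*-/- stroma the number of lower ligands was 0. In the contrast within *Jmjd6*-/- stroma 3 ligands were higher, in place of 5. Without the filter *Pdcd1lg2* missed the threshold (adjusted p = 0.0531), and *Cd83* did so without the filter (0.0966) and without the trend (0.0774). Leaving out each library in turn gave 4 to 5 ligands higher and 0 to 2 lower with RANKL, and 0 to 1 higher and 0 to 2 lower between the genotypes. The labels do not say whether libraries of the same replicate number share anything. The differences of the duplicates correlated at -0.0778 between the genotypes, which does not settle it. With a replicate block, 2 ligands were lower in *Jmjd6*-/- stroma, *Cd86* (-0.78, adjusted p = 0.0492) and *Cd276* (-0.83, adjusted p = 0.016). In that fit 1081 genes were lower in place of 290 and 396 higher in place of 82. The ratio of *Cd86* to *Cd80* changed by -3.29 with a constant of 1, and that of *Pdcd1lg2* to *Cd274* by 1.17 with 1 and 2.29 with 0.01, and by 1.91 to 2.28 with a library left out.

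Signs turned only in small changes. *Cd274* changed with RANKL by 0.0077 within *Jmjd6*-/- stroma, and by -0.0933 to 0.0077 with a library left out. Between the genotypes under RANKL such omissions gave -0.2019 to 0.1407 for *Icosl*, -0.0684 to 0.5933 for *Cd70* and -0.1793 to 0.0627 for *Cd83*. For the difference in response they gave -0.0142 to 0.2041 for *Cd274*, -0.1704 to 0.0083 for *Cd276*, -0.0684 to 0.5933 for *Cd70*, -0.0676 to 0.1743 for *Cd83* and -0.1008 to 0.2418 for *Icosl*. Omitting an unstimulated library leaves no difference in response to fit.

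Over all genes, 1675 were higher and 654 lower with RANKL. Without the filter these were 788 and 299, within WT stroma 962 and 89, within *Jmjd6*-/- stroma 596 and 55, and with a library left out 623 to 2176 and 54 to 1499; without the trend 398 were lower. Between the genotypes the lower genes were 180 with a constant of 0.01, 172 with the filter at 1 FPKM and 1 without the filter, which also left 1 higher, and 82 to 1836 lower and 22 to 2428 higher with a library left out. For the difference in response, in place of 0, 93 were higher and 83 lower without the filter, 27 and 67 with the block, and 0 to 4 and 0 to 1 with a library left out. The cause of these shifts was not tested. Depth limits *Cd70* and *Pdcd1lg2* most.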
